A study of Danio rerio with 6 samples.

Results

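The apoptotic caspases described here are CASP3a, CASP3b, CASP6, CASP2, CASP8 and CASP9, which are 6 of the 326 gene wells of a real-time PCR array for zebrafish (Danio rerio). They were chosen by a symbol that begins with CASP, with the inflammatory caspase CASP1 left out. The transcripts were measured in whole embryos at 24 hours post fertilization. The NOD1 group had been microinjected with ptGFP1-NOD1, a plasmid that carries NOD1, and the control group with the parent plasmid ptGFP1, so both groups carried the ptGFP1 sequence. Each group had 3 biological replicates with 1 plate each, and RNA came from pools of 150 to 200 embryos on average. Which promoter drives NOD1 and which cells took up the plasmid are not given in the sources used here. Nothing in the labels says that the replicates came from separate spawnings or injections, so p-values measure only the spread between these plates.

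Caspases are cysteine proteases made as inactive precursors. Initiator caspases are switched on in assembled complexes: CASP8 at death receptors through the adaptor FADD, CASP9 on the APAF1 apoptosome after cytochrome c leaves the mitochondria, and CASP2 through the adaptor CRADD. Executioner caspases, here CASP3a, CASP3b and CASP6, are activated downstream of initiators and then cut the proteins whose loss takes the cell apart. CASP3a and CASP3b are paralogs, a pair of related genes of zebrafish. NOD1 is an intracellular sensor of bacterial peptidoglycan with a CARD domain that recruits the kinase RIPK2, and in mammalian cells overexpressed NOD1 has been described as binding the precursor of caspase-9. Because caspases are activated by cleavage, a transcript level is not a measure of caspase activity.

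Each value is a threshold cycle (Ct), the PCR cycle at which fluorescence crosses a set threshold, so a later Ct means less template. Levels are given relative to 3 reference genes: the Ct of the caspase was subtracted from the average Ct of ACTB, GAPDH and Tuba1 within each plate. On this log2-like scale 1 unit is about a doubling if amplification is complete. All 6 caspases were well within range, with Ct values between 18.9 and 26.6, and all 6 were kept among the 319 wells tested. Between 314 and 321 gene wells per plate had a Ct under 35. The injected gene was present as labelled: the nod1 level was -3.20, -1.49 and -2.26 in NOD1 embryos and -10.81, -10.94 and -10.97 in control embryos. The reference genes came up later on the NOD1 plates, with a mean Ct of 18.3 ± 0.102 in NOD1 and 17.6 ± 0.136 in control plates (SD, n = 3 each), and the median difference of all 319 wells was 0.32 on the log2 scale. The 18S rRNA, which 1 of the alternative scalings adds, was lower in NOD1 by 1.95 relative to these reference genes. Its mean Ct was 9.8 in NOD1 and 7.2 in control plates. The NOD1 plates were run on 1 day and the control plates on 2 earlier days, so run day and group cannot be told apart. Fewer cells of a type and less transcript per cell also cannot be told apart in whole embryos.

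The caspases did not move as 1 block. On the reference-gene scale, CASP3a and CASP3b in NOD1 embryos were estimated at 46.3% and 45.5% of their control level. CASP6 fell by a smaller amount, and none of CASP2, CASP8 and CASP9 passed the test. A fall to less than 50% is not established for CASP3a or CASP3b. The upper interval limits of their NOD1 to control ratios were 0.582 and 0.577. With 18S rRNA added to the reference genes their differences were -0.62 and -0.65 on the log2 scale. In the limma fit over all 319 wells (Benjamini-Hochberg adjusted p, threshold 0.05), 3 of these 6 caspases were lower and 0 were higher, against 15.4% of all wells lower and 37.0% higher. CASP8, at an unadjusted p of 0.0914, and CASP9, at 0.429, were the 2 with a difference above 0. The median difference of the 6 was -0.44 on the log2 scale, and that of all wells was 0.32. In 4 of 6 caspases every NOD1 level lay below every control level, which held for 21.6% of all wells, and in 0 every level lay above, as it did in 42.3% of all wells.

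CASP3a, an executioner protease, had Ct values of 25.1, 25.4 and 24.9 in NOD1 embryos and 23.4, 23.5 and 23.1 in control embryos. On the reference-gene scale its level was -6.88, -7.01 and -6.70 in NOD1 and -5.84, -5.79 and -5.64 in control plates. The groups were separated by a gap far wider than the spread within either of them. The difference was -1.11 ± 0.13 on the log2 scale (SE, 95% interval -1.44 to -0.78, n = 3 per group, adjusted p = 0.00178), which puts the NOD1 level at 46.3% of control.

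CASP3b, its paralog, had Ct values of 26.1, 26.5 and 26.3 in NOD1 embryos and 24.5, 24.8 and 24.2 in control embryos. The corresponding levels were -7.86, -8.15 and -8.05 in NOD1 and -6.86, -7.03 and -6.77 in control plates, again with no overlap. It fell by 1.13 ± 0.14 on the log2 scale (95% interval -1.48 to -0.79, adjusted p = 0.00184), to 45.5% of control. Among all 319 wells, 13 had a lower difference than CASP3a and 12 a lower difference than CASP3b.

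**Figure D1:**
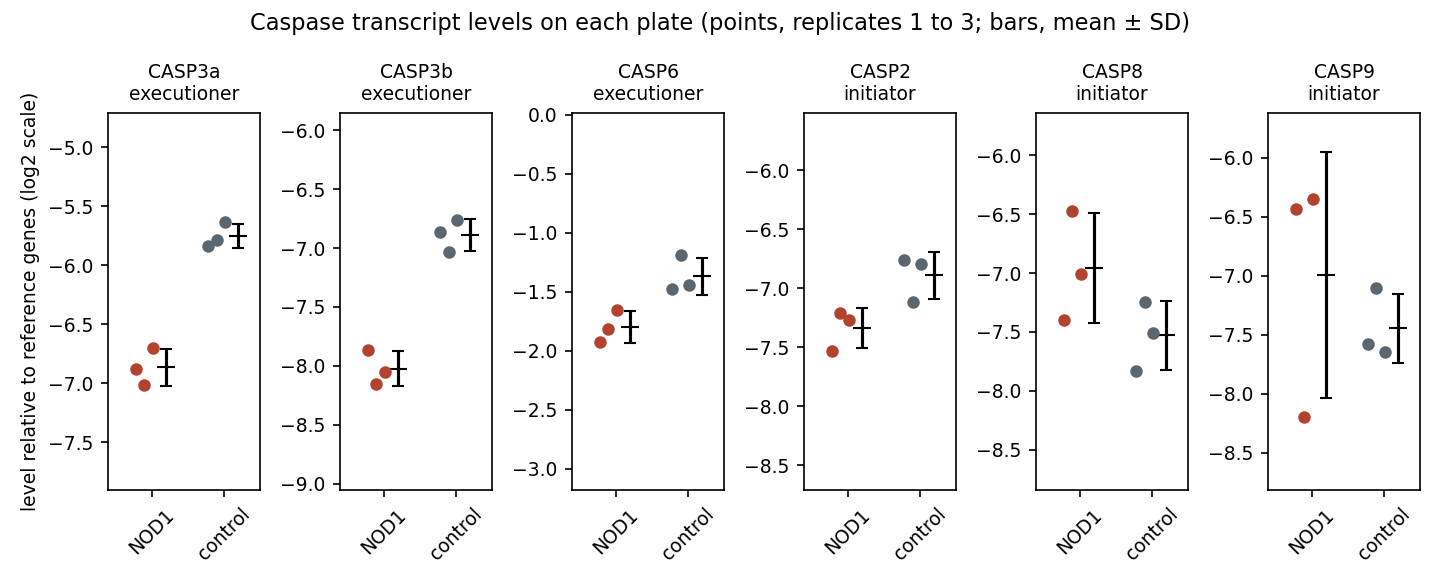
Level of each caspase relative to the plate mean of ACTB, GAPDH and Tuba1 (log2 scale, every panel spanning the same range), with 1 point per plate, NOD1 left of control, and the mean ± SD beside the points. CASP3a and CASP3b are lower in all 3 NOD1 plates by about the same distance, whereas the CASP9 values of the NOD1 plates run from -8.20 to -6.35 on either side of the control values.

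The fall of these paralogs held under every scaling compared. The 11 scalings were the 3 reference genes together, each of them alone, the set with B2M or with 18S rRNA added, the global mean, the global median, quantile and cyclic loess scaling of the plates, and raw Ct. Over these CASP3a differed by -1.77 to -0.62 and CASP3b by -1.79 to -0.65 on the log2 scale, and both passed the threshold as lower in 11 of 11. The share of all wells called lower was 43.9% with the global mean, 42.0% on raw Ct, 35.7% with the global median and 24.5% with quantile scaling. It was 22.6% with cyclic loess and with ACTB alone, 15.4% with Tuba1 alone, 11.6% with B2M added, 8.15% with GAPDH alone and 5.64% with 18S rRNA added, so with 18S rRNA the paralogs were among 18 wells called lower. The size of the fall moved with the scaling. It was smallest with 18S rRNA added (-0.62 for CASP3a and -0.65 for CASP3b) and largest on raw Ct (-1.77 and -1.79). Set against the median of all wells under the same scaling, which removes most of that movement, CASP3a lay at -1.43 to -1.03 and CASP3b at -1.45 to -1.19. Only quantile (-1.03 and -1.26) and cyclic loess scaling (-1.04 and -1.19) could move these values, since the others shift all wells of a plate alike. Leaving out any single plate left CASP3a at -1.19 to -1.04 (adjusted p = 0.00410 to 0.00978) and CASP3b at -1.21 to -1.07 (adjusted p = 0.00368 to 0.00985). Without control replicate 1, which leaves control plates of a single run day, the differences were -1.15 and -1.12.

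On the reference-gene scale the paralogs changed by nearly the same amount. Subtracting CASP3b from CASP3a within a plate removes the reference genes from the comparison. That gap was 0.99, 1.14 and 1.35 in NOD1 plates and 1.03, 1.25 and 1.13 in control plates, so the groups overlapped. The mean gap differed by 0.02 on the log2 scale (exact permutation p = 0.9, two-sided, where 3 plates against 3 cannot give less than 0.1), and the 9 possible differences between a NOD1 and a control plate ran from -0.26 to 0.32. Differences in response between the paralogs of up to about that size are not excluded by these plates. Quantile and cyclic loess scaling, which do not shift all wells of a plate alike, widened the difference in mean gap. It was 0.23 and 0.15 with these scalings (exact permutation p = 0.3 and 0.4). For comparison, on the reference-gene scale the median absolute difference in response over all 50721 pairs of tested wells was 1.11. On that scale 1.18% of pairs differed by less than CASP3a and CASP3b did.

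CASP6, an executioner that in mammals cleaves nuclear lamins, was the earliest caspase on the plate. Its Ct values were 20.1, 20.2 and 19.9 in NOD1 and 19.1, 18.9 and 18.9 in control plates. Relative to the reference genes its level was -1.93, -1.82 and -1.65 in NOD1 and -1.48, -1.19 and -1.44 in control plates, which do not overlap but lie close together. It fell by 0.43 ± 0.14 (95% interval -0.78 to -0.08, adjusted p = 0.0467), to 74.2% of control. The call was narrow: it was lost when any 1 of the 6 plates was left out (adjusted p = 0.0514 to 0.135), and over the 11 scalings CASP6 passed as lower in 7 and differed by 0.06 with 18S rRNA added (adjusted p = 0.687).

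**Figure D2:**
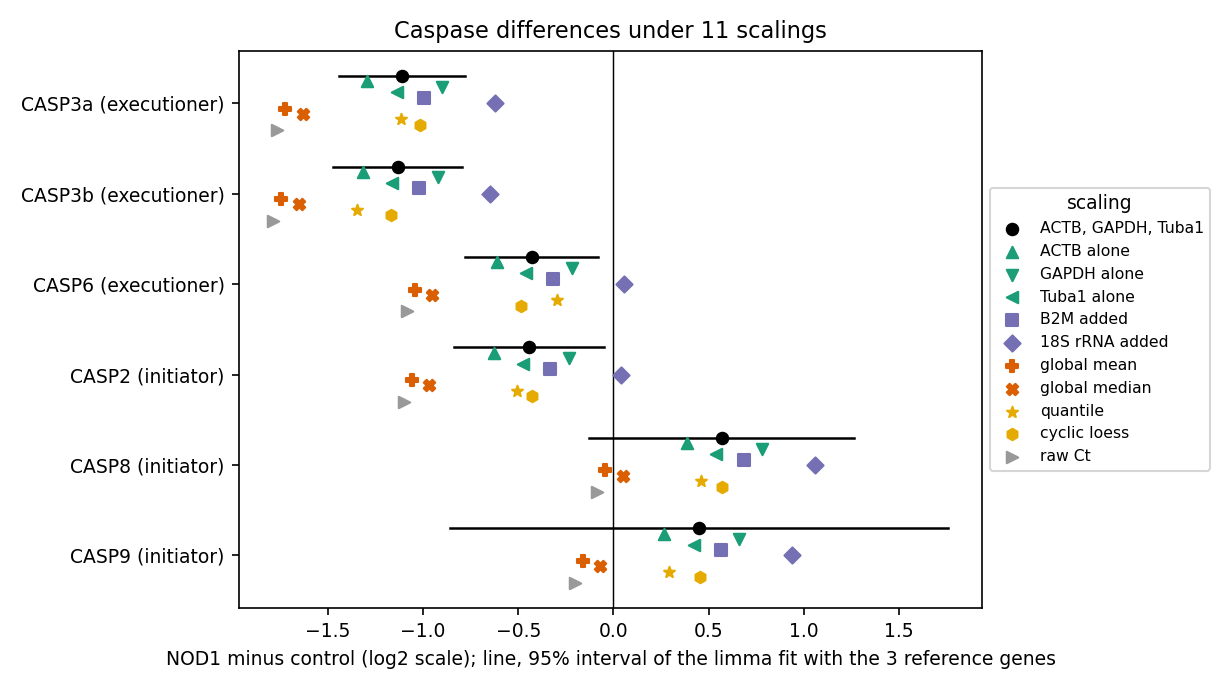
Difference between NOD1 and control for each caspase (log2 scale) under 11 scalings, 1 symbol per scaling, with the 95% interval of the limma fit drawn for the scaling to ACTB, GAPDH and Tuba1. All symbols of CASP3a and CASP3b lie below 0, while those of CASP8 and CASP9 fall on both sides of it, with raw Ct at the low end and 18S rRNA added at the high end.

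CASP2, CASP8 and CASP9, the initiators, gave no call, and each did so in its own way. CASP2, which is recruited through CRADD, had levels of -7.53, -7.21 and -7.27 in NOD1 and -6.76, -7.12 and -6.79 in control plates, with no overlap. Its difference of -0.45 ± 0.16 (95% interval -0.84 to -0.05) was about as large as that of CASP6 and missed the threshold after adjustment (adjusted p = 0.0608). It passed as lower in 4 of the 11 scalings, with the global mean, the global median, raw Ct and ACTB alone, and differed by 0.04 with 18S rRNA added. It also passed with a mean-variance trend in limma (adjusted p = 0.0443) and without control replicate 2 (-0.56, adjusted p = 0.0434).

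CASP8, the initiator of the death receptor pathway, had levels of -7.40, -6.47 and -7.01 in NOD1 and -7.83, -7.24 and -7.51 in control plates, and the groups overlapped. Its difference was 0.57 ± 0.28 (95% interval -0.13 to 1.27, adjusted p = 0.143). It passed as higher in 1 of 11 scalings, with 18S rRNA added, and differed by -0.09 on raw Ct. The share of all wells called higher was itself largest there, at 61.1% with 18S rRNA added, followed by 39.8% with GAPDH alone, 38.9% with B2M added, 35.1% with Tuba1 alone and 32.0% with ACTB alone. It was 24.8% with the global median, 23.8% with the global mean, 22.3% on raw Ct, 20.7% with cyclic loess and 18.8% with quantile scaling.

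CASP9, the initiator of the mitochondrial pathway, had levels of -6.44, -8.20 and -6.35 in NOD1 and -7.58, -7.11 and -7.65 in control plates. NOD1 replicate 2 stood apart, with a Ct of 26.6 against 24.7 and 24.6 in the other NOD1 plates. The difference over all plates was 0.45 ± 0.53 (95% interval -0.86 to 1.76, adjusted p = 0.489), the widest interval of the 6. Without NOD1 replicate 2 it was 1.05 and passed (adjusted p = 0.0206), and without NOD1 replicate 1 or 3 it was 0.17 or 0.13. Over the scalings it passed in none of 11, and it lay below 0 with the global mean, the global median and raw Ct.

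The NOD1 replicates differed in how much nod1 they held. Replicate 2 had the highest nod1 level, -1.49, and of the 3 NOD1 plates it also had the lowest CASP3a, CASP3b and CASP9 levels, the highest CASP8 and CASP2 levels and the middle CASP6 level. With 3 plates no relation between nod1 and a caspase can be tested.

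The 3 executioners described here were lower relative to the 3 initiators in NOD1 embryos. The mean level of CASP3a, CASP3b and CASP6 minus that of CASP2, CASP8 and CASP9 was 1.56, 1.63 and 1.40 in NOD1 plates and 2.66, 2.49 and 2.70 in control plates, with no overlap and a difference of -1.08 on the log2 scale. The score describes these 6 wells and not the classes as a whole, and no test is given for it, since the members were chosen with results of these data known. The mean level of the 3 executioners was -5.56, -5.66 and -5.47 in NOD1 and -4.73, -4.67 and -4.61 in control plates, while the initiator means overlapped. Leaving CASP9 out of the initiators moved the difference to -0.95. The values were then 1.91, 1.18 and 1.67 in NOD1 plates and 2.57, 2.51 and 2.54 in control plates. The SD of the NOD1 plates was 0.37 without CASP9 and 0.12 with it. By single genes, CASP3a and CASP3b were the lowest at -1.11 and -1.13, the executioner CASP6 (-0.43) and the initiator CASP2 (-0.45) came next at nearly the same value, and CASP9 (0.45) and CASP8 (0.57) stood above 0.

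Within-plate comparisons of 1 caspase with another do not depend on the reference genes. There were 15 such pairs, and in 10 the NOD1 and control plates did not overlap, close to the 63.9% of all pairs of tested wells. No pair can pass at this number of plates: the exact permutation p was at least 0.1, and at least 0.15 after adjustment over the 15 pairs. All 8 pairs that set CASP3a or CASP3b against another caspase were among those without overlap. They are not 8 separate results, since CASP3a and CASP3b changed by nearly the same amount. Some separations were narrow: the nearest NOD1 and control plates differed by -0.03 for CASP3b minus CASP9, -0.09 for CASP3b minus CASP6 and -0.14 for CASP3a minus CASP9. CASP3a minus CASP8 was 0.52, -0.54 and 0.30 in NOD1 plates and 2.00, 1.46 and 1.87 in control plates, a difference of -1.68. CASP3b minus CASP8 was -0.47, -1.68 and -1.05 in NOD1 plates and 0.97, 0.21 and 0.74 in control plates, so the Ct order of these wells was turned round in every NOD1 plate. CASP3b had the latest of the 6 mean Ct values in NOD1 (26.3) and the third earliest in control (24.5), where it was tied with CASP2 (24.5) within the spread of the plates. Such an order also reflects the efficiency of each assay, on which the sources used here say nothing.

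Besides CASP3a with CASP3b, the groups overlapped in 4 pairs. CASP6 and CASP2 differed in mean response by 0.02 (CASP6 minus CASP2 was 5.60, 5.39 and 5.61 in NOD1 plates and 5.28, 5.93 and 5.35 in control plates). The other overlapping pairs all held CASP9, whose NOD1 plates were widely spread: CASP6 minus CASP9 differed by -0.88, CASP2 minus CASP9 by -0.90 and CASP8 minus CASP9 by 0.12. The last mean is no sign of like movement, since CASP8 minus CASP9 was -0.96, 1.72 and -0.66 in NOD1 plates and -0.25, -0.14 and 0.14 in control plates. CASP6 minus CASP8, by contrast, was 5.46, 4.66 and 5.35 in NOD1 plates and 6.35, 6.06 and 6.07 in control plates, with no overlap. CASP2 minus CASP8, a pair of initiators, also showed no overlap. It was -0.13, -0.74 and -0.26 in NOD1 plates and 1.07, 0.13 and 0.72 in control plates, a difference of -1.02. Separation was therefore not limited to pairs of an executioner with an initiator.

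**Figure D3:**
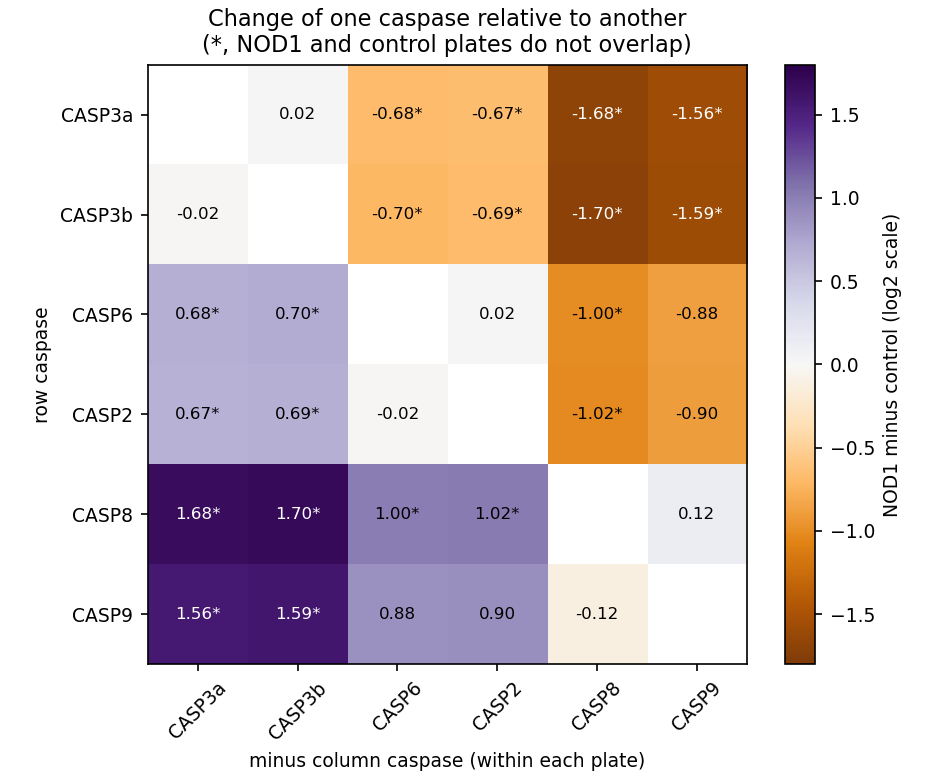
Difference between NOD1 and control in the within-plate level of the row caspase minus the column caspase (log2 scale), for the 15 pairs shown once above and once, with the sign turned, below the diagonal. Asterisks mark pairs whose NOD1 and control plates do not overlap, and the rows of CASP3a and CASP3b hold the lowest values, from -1.70 to -0.67 against every other caspase.

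The change in wells of similar Ct gives a scale for these values. Among the 71 other wells whose mean control Ct was within 1 cycle of that of CASP3a, the median difference was -0.14, 19 were called lower and 6 higher, and 3 had a lower difference than CASP3a. Around CASP3b there were 59 such wells with a median of -0.22, of which 3 had a lower difference. CASP8 and CASP9 lay above 50 of 61 and 48 of 58 wells of similar Ct. Around CASP2 there were 58 such wells with a median of -0.20, of which 16 were called lower and 18 had a lower difference than CASP2. CASP6 had only 1 such well, too few for a comparison.

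**Figure D4:**
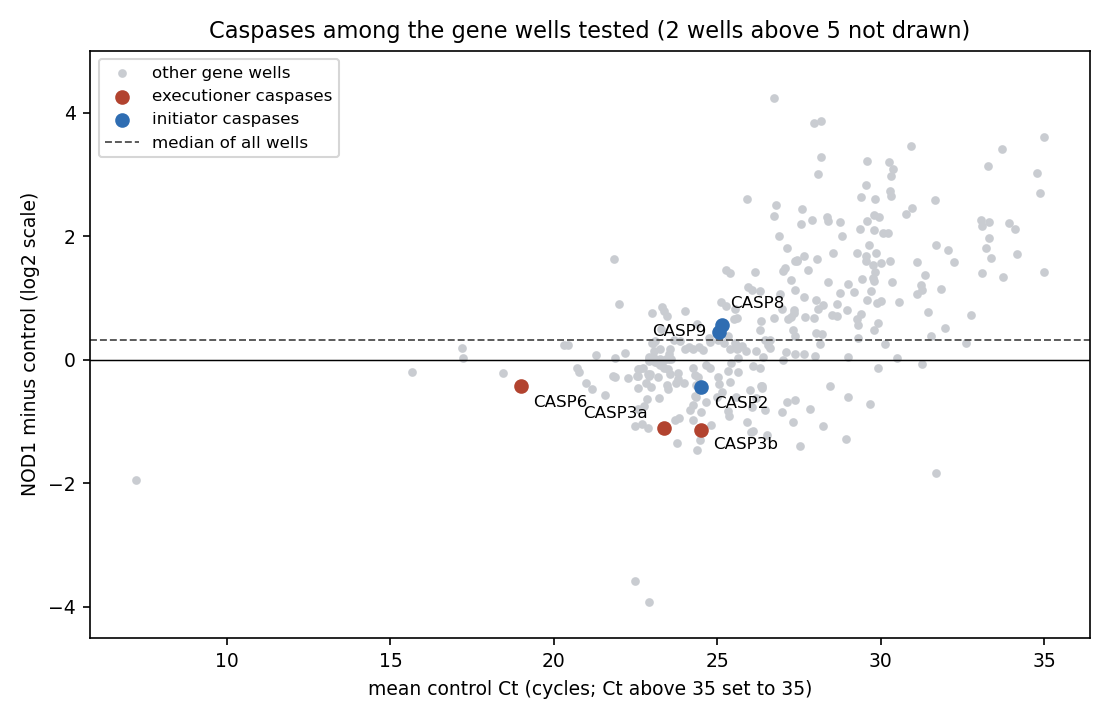
Difference between NOD1 and control (log2 scale) against the mean control Ct of the gene wells tested, with executioner and initiator caspases coloured and the median of all wells, 0.32, as a dashed line; 2 wells above 5 are not drawn. CASP3a and CASP3b sit near the lower edge of the wells at their Ct, and wells with a later control Ct lie higher than those with an earlier one.

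The wells whose levels ran most like the mean of CASP3a and CASP3b over the 6 plates were CSF1R, MAP3K3, STAT3, PRLR and RIPK2. After each well was centred on its own mean, their root mean square distance from the mean of CASP3a and CASP3b was 0.120, 0.124, 0.149, 0.152 and 0.154 log2 units. The median of 312 wells that are not apoptotic caspases was 0.783. CASP3a and CASP3b each lay 0.062 from their mean, of which they are part, and 0.124 from each other. All 5 were lower in NOD1 embryos, by 0.92 to 1.17 on the log2 scale. A fall of about this size follows from how they were chosen, since the profile of CASP3a and CASP3b is mostly their fall. It is therefore no separate result. CSF1R, the receptor of macrophage growth factor, was -9.48, -9.86 and -9.43 in NOD1 and -8.29, -8.50 and -8.47 in control plates. RIPK2, the kinase that binds NOD1, was -8.67, -8.86 and -8.49 in NOD1 and -7.83, -7.66 and -7.77 in control plates. CASP2 and CASP6 were next among the caspases, at 0.381 and 0.387, with 42 and 44 wells closer to the mean of CASP3a and CASP3b.

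Upstream of the caspases, genes of the death receptor list went both ways. Of 14 genes of death receptors, ligands and adaptors, 4 rose and 4 fell in NOD1 embryos while 6 missed the threshold, where 37.0% of all wells were higher and 15.4% lower, so the share of 4 in 14 that rose was below that of all wells. The median difference was 0.18. The 4 higher genes were FASLG, the ligand of the death receptor FAS, and LTA, tnfa and tnfb, of the tumour necrosis factor group. In the order LTA, tnfa, FASLG and tnfb they rose by 3.13 ± 0.27, 2.59 ± 0.48, 2.36 ± 0.35 and 2.01 ± 0.28 on the log2 scale (adjusted p = 8.52e-04, 0.00719, 0.00351 and 0.00297). LTA, FASLG and tnfb passed in 11 of 11 scalings and tnfa in 10. These were late wells: LTA had a mean control Ct of 33.3 and FASLG of 30.8, and wells within 1 cycle of them had median differences of 1.97 and 1.57. Wells within 1 cycle of tnfa and tnfb had median differences of 1.53 and 1.24.

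The 4 lower genes were TRAF2b and RIPK1, which act in the tumour necrosis factor receptor complex, CRADD, and the receptor TNFRSF21. They fell, in this order, by 0.77 ± 0.15, 0.74 ± 0.13, 0.62 ± 0.14 and 0.50 ± 0.16 (adjusted p = 0.00837, 0.00671, 0.0154 and 0.0467), passing in 10, 10, 9 and 7 of 11 scalings. TRAF2b and RIPK1 kept the call without any single plate, CRADD in 4 of 6 such fits (adjusted p up to 0.0579) and TNFRSF21 in 1 of 6 (up to 0.137). CRADD, the adaptor of CASP2, was -9.27, -9.23 and -9.04 in NOD1 and -8.77, -8.49 and -8.42 in control plates. The plate's RIPK1 accession maps to the zebrafish gene ripk1l. FADD, the adaptor that joins CASP8 to its receptors, differed by 0.14 ± 0.14 (adjusted p = 0.426), and CFLAR, the caspase-like inhibitor of CASP8, by 0.48 ± 0.21 (adjusted p = 0.106). TRADD had the largest difference of the list, 3.87 ± 2.32, and did not pass (adjusted p = 0.207). Its NOD1 levels were -6.77, -6.70 and -6.59, above every control level. Its control replicate 3 well lay at -16.13, against -7.53 and -8.02 in the other control plates, and the difference without that plate was 1.09. TRADD passed in 1 of 6 fits without a plate.

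Of 8 genes of the Bcl-2 family and the apoptosome described here, 0 were higher and 1 was lower by limma, against 37.0% and 15.4% of all wells. At an unadjusted p under 0.05 BCL2L11 was also among them, with a difference of 0.44 ± 0.17 (unadjusted p = 0.0423, adjusted p = 0.0756). The lower gene was the survival factor BCL2, which maps to bcl2a, at -7.36, -7.24 and -7.39 in NOD1 and -6.81, -6.84 and -6.85 in control plates (-0.50 ± 0.11, adjusted p = 0.0111, lower in 8 of 11 scalings and in 5 of 6 fits without a plate). The 61 wells within 1 cycle of the control Ct of BCL2 had a median difference of -0.22. Of these, 17 were called lower and 17 had a lower difference than BCL2. APAF1, the scaffold on which CASP9 is activated, was -8.65, -8.46 and -8.53 in NOD1 and -8.79, -10.53 and -8.78 in control plates. Its difference of 0.82 ± 0.50 did not pass (adjusted p = 0.208) and was 0.24 without control replicate 2, the plate with the late well. The pore-forming BAX differed by -0.14 and the anti-apoptotic BCL2L1 by -0.02 (adjusted p = 0.329 and 0.915). Outside the list, and chosen after their values were seen, BNIP3 was higher by 2.83 (adjusted p = 0.00106), BNIP2 was lower at -0.48 (adjusted p = 0.0207) and BNIP3L differed by 0.17 (adjusted p = 0.400). BNIP3 was a late well, with a mean control Ct of 29.5. Wells within 1 cycle of tnfa, whose mean control Ct was 29.8, had a median difference of 1.53.

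Of 3 inhibitors of apoptosis, 1 was higher and 0 were lower, against 37.0% and 15.4% of all wells. The higher gene was BIRC6, and the other 2 did not pass. BIRC6, a large ubiquitin ligase that in mammals restrains caspases, was -10.83, -10.99 and -10.80 in NOD1 and -13.38, -13.22 and -13.38 in control plates, a difference of 2.45 ± 0.12 (adjusted p = 2.25e-04) that passed in 11 of 11 scalings. The 30 wells within 1 cycle of its control Ct of 30.9 had a median difference of 1.57. BIRC4, the direct caspase inhibitor known as xiap, differed by 0.29 ± 0.18 (adjusted p = 0.215), and BIRC2 by 0.01 ± 0.14 (adjusted p = 0.959).

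On the inflammatory side, CASP1 was -9.06, -9.44 and -9.60 in NOD1 and -9.59, -9.43 and -9.44 in control plates, with overlap and a difference of 0.12 ± 0.17 (adjusted p = 0.564). The inflammasome adaptor PYCARD differed by -0.27 ± 0.14 (adjusted p = 0.152). IL1B, the cytokine precursor that caspase-1 cleaves in mammals, rose by 1.62 ± 0.24 (adjusted p = 0.00348). The 61 wells within 1 cycle of its control Ct had a median difference of 0.82.

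Of 5 genes of the NOD1 relay, 1 was higher and 2 were lower, against 37.0% and 15.4% of all wells. RIPK2 fell by 0.92 ± 0.14 (adjusted p = 0.00387) and passed in 11 of 11 scalings. IKBKG, the regulatory subunit of the IkB kinase, fell by 0.42 ± 0.14 (adjusted p = 0.0455), although it differed by 0.07 with 18S rRNA added and kept the call in 1 of 6 fits without a plate. NOD2 rose by 1.08 ± 0.13 (adjusted p = 0.00176) but differed by -0.09 with quantile scaling, and the 54 wells within 1 cycle of its control Ct had a median difference of 1.17. TAK1 and IKBKB differed by -0.05 and -0.10 and did not pass.

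**Figure D5:**
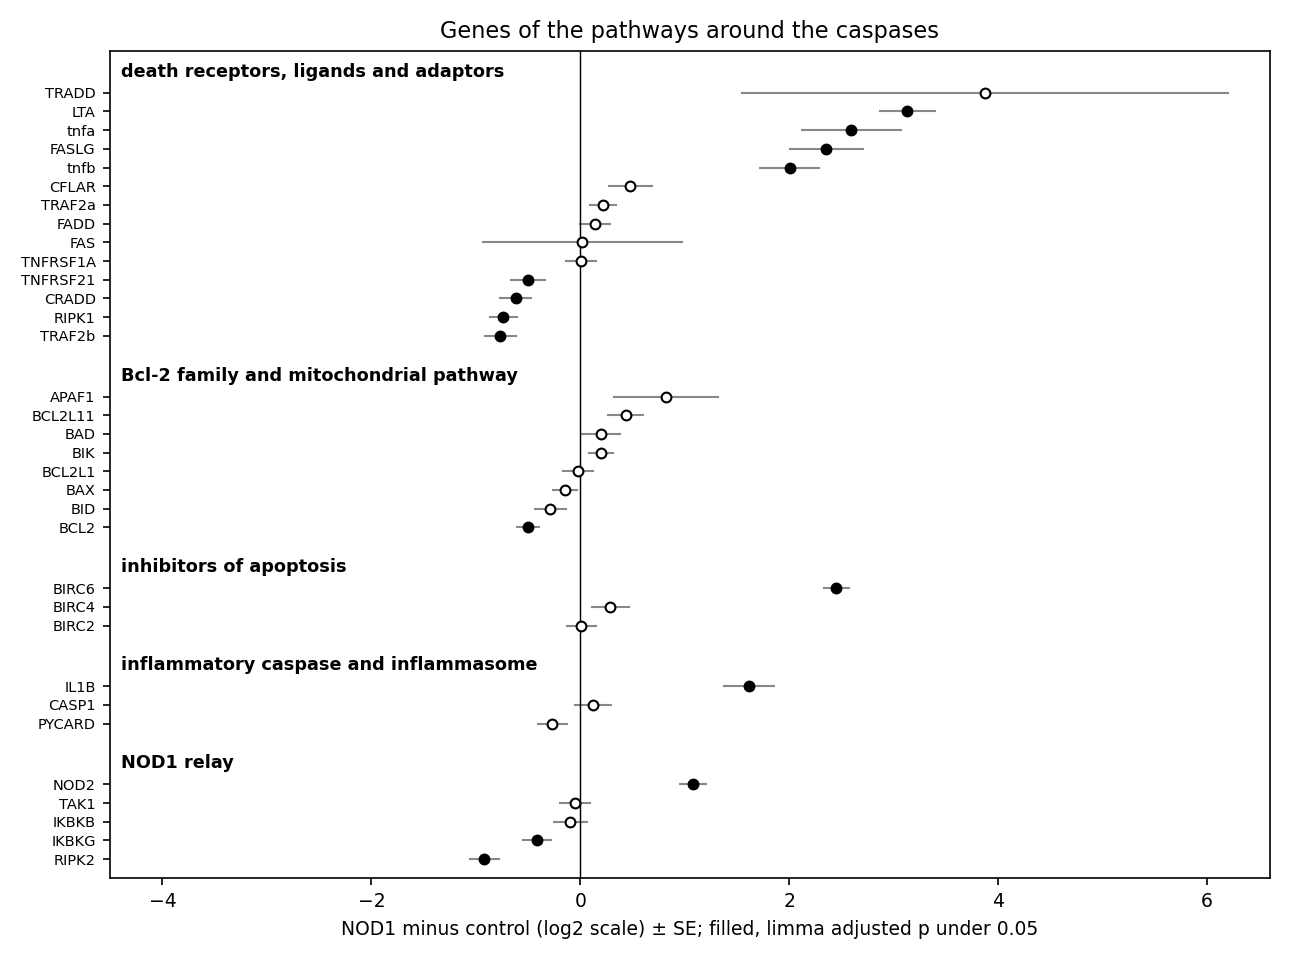
Difference between NOD1 and control (log2 scale ± SE of the limma fit) for the measured genes of 5 pathway lists, with filled points for an adjusted p under 0.05. The ligands LTA, tnfa, FASLG and tnfb lie between 2.01 and 3.13, TRAF2b, RIPK1 and CRADD between -0.77 and -0.62, and BCL2, the 1 filled point of its list, at -0.50.

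Blood cell genes moved in both directions beside these results. Of the marker list used here 3 genes were measured, all from its myeloid part. Of these, 2 were higher and 1 was lower, against 37.0% and 15.4% of all wells. CSF1R fell by 1.17 (adjusted p = 0.00271), while the transcription factors SPI1 and IRF8 rose by 0.81 and 0.97 (adjusted p = 0.0146 and 0.00451). CSF1R passed in 11 of 11 scalings, SPI1 in 7 and IRF8 in 6, with ranges of -1.82 to -0.68, 0.16 to 1.30 and 0.07 to 1.45. The 60 wells within 1 cycle of IRF8 had a median difference of 0.89, close to its own. For SPI1 the median of 59 such wells was 0.04, and 49 had a lower difference than SPI1. For CSF1R the median of 62 such wells was 0.20, and 1 had a lower difference than CSF1R. The mean control Ct values of CSF1R, SPI1 and IRF8 were 25.5 to 28.0. Other blood cell genes of the plate, outside the list and chosen after their values were seen, were the pan-leukocyte PTPRC at -0.01 (adjusted p = 0.952), the erythropoietin receptor EPOR at -1.01 (0.00411), the myeloid receptor chain CSF2RB at -1.84 (0.0409) and the lymphoid receptor IL7R at 2.35 (0.0111). The part of blood cells in the caspase results was not tested.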

How the data were processed

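Transcripts were measured by SYBR Green PCR on array plates of 336 wells (326 gene wells and 10 control wells), 1 plate per sample, 3 plates per group. The deposited Ct values are raw and came from SDS 2.3 with a manual threshold of 0.2, per the file headers. A second deposited table holds the authors' mean delta Ct per group, a log2-like value, with a ratio or fold of NOD1 over control and a p-value, per the file headers from a test named only as T-TEST. Its delta Ct values were recovered for all 326 wells to within 1e-06 cycles with a ceiling of 35 cycles and the mean of ACTB, GAPDH and Tuba1. Amplification efficiency and primer specificity are not given in the sources used here.

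Here, Ct above 35 or undetermined was set to 35. The 319 wells with a Ct below 35 in every plate of 1 group or both were kept, and 7 were dropped. Groups were compared with limma 3.58.1 in R 4.3.3 (lmFit and eBayes, two-sided, no covariate), Benjamini-Hochberg adjusted over the 319 wells, and single values by exact permutation (scipy 1.17.1). Every adjusted p of a gene is limma's, except where it is said to come from the authors' deposited p-values. The script was tested on simulated data.

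Symbols are those of the plate. All 6 caspases matched a gene of RefSeq assembly GRCz12tu by accession (CASP6 matched casp6a). Named genes without such a match included FASLG, FADD, CFLAR, APAF1, BAX, BIRC6, NOD2, CSF1R, PRLR and CASP1. Their identity rests on the plate symbol. No sequences were used. The members, lists and tests were chosen with earlier results of these data known. Named genes are the members, nod1, the reference genes, the 3 largest differences of each list and the 5 wells nearest the mean of CASP3a and CASP3b. Other list members were named after their values were seen. List symbols had to match exactly or with a paralog letter, so CD40 and IL18R were not taken for CD4 and IL18. Some genes that these rules select are not reported here: they entered the fit over all wells and no other value, so counts and scores cover the reported members only. Alternatives covered scaling, ceiling, filter, test, replicate block and each plate left out.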

Additional observations from a re-analysis of the deposited data

How the results depend on the processing

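The falls of CASP3a and CASP3b kept their direction and stayed past the threshold under all 22 alternatives run, from -1.77 to -0.62 and -1.79 to -0.65. Some alternatives could not move these differences, since every Ct of these paralogs was below 35. They were a ceiling of 40 cycles, values over 35 taken as missing, and no filter. The replicate block, the mean-variance trend in limma and the authors' deposited p-values could not move the differences either, only their p-values. With the authors' deposited p-values adjusted over all gene wells CASP3a and CASP3b passed at 0.00722 and 0.00743, while CASP6 did not (0.0519). The other caspases depended on the scaling. With 18S rRNA added CASP6 was 0.057 and CASP2 0.041. With the global mean CASP8 and CASP9 were -0.043 and -0.16, with the global median CASP9 was -0.070, and on raw Ct CASP8 and CASP9 were -0.085 and -0.20. The number of caspases called higher, 0 with the reference genes, was 1 with 18S rRNA added and with the replicate block (CASP8 in both), and 0 to 1 without single plates (CASP9 without NOD1 replicate 2). The number called lower was 2 to 4 throughout. Over all wells, against 118 higher and 49 lower, there were 195 and 18 with 18S rRNA added, 127 and 26 with GAPDH alone, 76 and 140 with the global mean, 71 and 134 on raw Ct, 79 and 114 with the global median, 66 and 72 with cyclic loess, and 60 and 78 with quantile scaling. Without single plates the counts were 95 to 115 and 31 to 45, with 31 lower without control replicate 1 and 32 without control replicate 3. The gap between CASP3a and CASP3b differed by -0.073 to 0.11 without single plates, with -0.030 without control replicate 1 and -0.073 without NOD1 replicate 3. Under quantile and cyclic loess scaling that gap differed by 0.23 and 0.15. The 3 executioners minus the 3 initiators differed by -1.15 to -1.02 without single plates and by -0.95 with CASP9 left out, an alternative chosen after seeing the data. With the replicate number as a block, CASP3a and CASP3b passed (adjusted p = 0.00822 each), CASP6 did not (0.0942), CASP8 did (0.57, adjusted p = 0.0427), and 111 of all wells (34.8%) were higher and 40 (12.5%) lower. The plates share only a number: deviations of same-numbered plates from their group means correlated at 0.11, 0.03 and -0.02, and not every plate correlated best with its own number. The number of plates, 3 per group, limits the precision of every value, and no cause of these dependences was tested.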
